A study of Mus musculus with 24 samples.

Results

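The response of C3H mouse cortex to conduritol B-epoxide (CBE) was read from 6 of the 24 arrays of the series, 3 from CBE-treated and 3 from PBS-treated C3H mice, as the difference between the groups across 22180 genes. The genes were those of the 23521 probe sets, out of 41034, that carried 1 gene symbol, with the brightest probe set kept for each symbol. The study modelled the neuronopathic form of Gaucher disease, an inherited deficiency of a lysosomal enzyme, in 4 mouse strains, SV129, FVB, C57 (C57BL/6JOlaHsd) and C3H. In each strain 3 male mice received CBE at 25 mg/kg per day by intraperitoneal injection from postnatal day 8 to day 18, and 3 male mice received PBS as healthy controls, and all were 18 days old. The labels name no mutant allele in any group: the disease was modelled by the chemical alone. RNA came from a 1 mm coronal section that held the cortex, so each array measured all cell types of that tissue together.

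CBE blocks the lysosomal breakdown of glucosylceramide, the step that fails in Gaucher disease. Type I interferons act through the Ifnar receptor and a complex of transcription factors that includes Irf9, which binds promoter elements built of repeated GAAA cores and switches on a large set of interferon-stimulated genes. Microglia, the resident macrophages of the brain, carry lysosomal and phagocytic genes that rise as these cells leave their resting state.

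The promoters of the called genes were searched for the core of that element, GAAANNGAAA on either strand, because most of the genes that rose in C3H are interferon-stimulated. RefSeq windows (GRCm38.p6) running from 250 bases before to 50 bases after a gene's start were held for 6 of the 9 genes called with or without CBE mouse 1. The core was found in 2 of those 6, Ifit1 and Isg15, and in 1131 of all 32851 windows (3.44%). Ifit1 was called with and without CBE mouse 1, and Isg15 only with all arrays. The share among the called genes was not tested against that of all windows. The 120 bases before each start are shown 5′ to 3′ on the gene's strand, with the GAAA or TTTC blocks of the matches in capitals. Ifit1 held 2 matches, starting 104 and 85 bases before the start (chr19:34640769-34640888, plus strand). Isg15 held 3 overlapping matches, starting between 78 and 66 bases before the start (chr4:156200819-156200938, minus strand).
Ifit1: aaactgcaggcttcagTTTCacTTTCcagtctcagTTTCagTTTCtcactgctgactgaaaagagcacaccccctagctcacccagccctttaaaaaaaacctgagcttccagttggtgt
Isg15: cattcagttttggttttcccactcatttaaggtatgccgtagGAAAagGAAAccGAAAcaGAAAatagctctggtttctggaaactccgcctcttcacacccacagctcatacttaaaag
The windows of Cd68, Lgals3bp, Oasl2 and Rnf213 did not hold these letters. A match describes the sequence and is no measurement of binding.

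All 6 C3H arrays, the 3 CBE arrays included, matched the C3H PBS profile best over the 500 genes that separate the strains. Those genes were chosen on the PBS arrays, the C3H ones among them, so only the 3 CBE arrays were an independent check. Medians of the 6 arrays lay between 4.14 and 4.19 on the log2 scale, and Pearson correlations were 0.9919 to 0.9931 between PBS arrays and 0.9896 to 0.9911 between CBE arrays. One library stood apart in a set of genes: the array of CBE mouse 1 exceeded the mean of CBE mice 2 and 3 by at least 1 log2 unit for 115 genes (0.518%) and lay below it by as much for 7 (0.0316%). The 25 measured genes of disease-associated microglia averaged 6.93 in CBE mouse 1, 5.62 and 5.61 in CBE mice 2 and 3 and 5.32 to 5.36 in the PBS mice. Most changes and list medians are therefore given with all arrays and again without CBE mouse 1. Where values of single mice are given they cover all 6 mice, for some genes and lists with a range in place of each value. For other genes and lists only the changes, or only the values of the mice, are given.

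With all arrays, 8 genes rose in CBE-treated C3H cortex, 0.0361% of those tested, and 0 fell (limma, Benjamini-Hochberg adjusted p up to 0.05). When CBE mouse 1 was left out, 7 genes rose (0.0316%) and 0 fell, and 6 genes were called both ways. The genes called with all arrays were Usp18, Ifit1, Oasl2, Lgals3bp, Ifi27, Rtp4, Rnf213 and Isg15, each known to be induced by interferon. Rtp4 and Isg15 no longer passed without CBE mouse 1, and Cd68, a lysosomal membrane glycoprotein of microglia and macrophages, then passed. All 9 genes were at least 1.5-fold higher in the CBE mice in both fits. At an unadjusted p under 0.05, limma counted 1114 genes (5.02%) with all arrays and 840 (3.79%) without CBE mouse 1, rises and falls together.

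Usp18 removes Isg15 from proteins and restrains interferon receptor signalling. Its log2 signal (probe set 17462437) was 3.88, 3.72 and 4.0 in PBS mice 1, 2 and 3 and 7.48, 5.94 and 5.94 in CBE mice 1, 2 and 3. The change was 2.59 ± 0.30 (SE of the limma fit, 3 against 3 mice), a 6.0-fold rise with a limma adjusted p of 0.000488. Leaving out CBE mouse 1 it was 2.07 ± 0.23, or 4.21-fold, with an adjusted p of 0.000268. Each SE in this text comes from the spread shared by all groups of the fit. It does not measure the spread between the C3H mice alone. The groups did not overlap, and CBE mice 2 and 3 lay within 0.01 of each other.

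Ifit1 encodes a protein that binds foreign RNA ends and blocks their translation. Its signal (probe set 17358832) was 4.75, 5.28 and 4.78 in PBS mice 1, 2 and 3 and 8.28, 7.03 and 6.74 in CBE mice 1, 2 and 3. All CBE mice lay above all PBS mice, and CBE mouse 1 was the highest. The rise was 5.32-fold (2.41 ± 0.30 log2, limma adjusted p 0.00085), and 3.86-fold (1.95 ± 0.25, adjusted p 0.00221) without that mouse.

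Oasl2, of the oligoadenylate synthetase family of antiviral RNA sensors, had a signal (probe set 17441037) of 4.12, 4.44 and 3.84 in PBS mice 1, 2 and 3 and 7.49, 6.13 and 5.64 in CBE mice 1, 2 and 3. The groups were again apart. Its change was 2.28 ± 0.33 with all arrays (limma adjusted p 0.00655) and 1.75 ± 0.27 without CBE mouse 1 (adjusted p 0.0195). Oasl2, Ifit1 and their family members resemble one another in sequence, and signal shared between relatives was not tested.

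Lgals3bp, a secreted glycoprotein that binds galectins, measured 5.73, 5.52 and 5.89 in PBS mice 1, 2 and 3 and 8.47, 7.39 and 6.78 in CBE mice 1, 2 and 3 (probe set 17272785). CBE mouse 3 was the lowest of its group and still above every PBS mouse. The change was 1.83 ± 0.29 (limma adjusted p 0.0115), and 1.37 ± 0.24 without CBE mouse 1 (adjusted p 0.044).

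Ifi27, an interferon-induced membrane protein, measured 5.77, 5.66 and 5.53 in PBS mice 1, 2 and 3 and 7.60, 7.03 and 6.42 in CBE mice 1, 2 and 3 (probe set 17278200). The 3 CBE mice were spread over more than the PBS mice but did not overlap them. Its change was 1.36 ± 0.21 (limma adjusted p 0.00761) with all arrays and 1.07 ± 0.19 (adjusted p 0.044) without CBE mouse 1.

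Rnf213, a very large ubiquitin ligase, had signals (probe set 17259078) of 4.93, 4.88 and 5.0 in PBS mice 1, 2 and 3 and 6.64, 5.76 and 5.95 in CBE mice 1, 2 and 3. The PBS mice were close together and all CBE mice lay above them. The change was 1.18 ± 0.18 (limma adjusted p 0.00761), and 0.92 ± 0.16 without CBE mouse 1 (adjusted p 0.0386).

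Isg15 encodes the ubiquitin-like protein that Usp18 removes. It measured 5.25, 5.19 and 5.68 in PBS mice 1, 2 and 3 and 7.09, 6.05 and 6.26 in CBE mice 1, 2 and 3 (probe set 17434023). PBS mouse 3 was the highest of its group and lay below the lowest CBE mouse. The change was 1.09 ± 0.19 with a limma adjusted p of 0.0269, and 0.78 ± 0.15 with an adjusted p of 0.0874 without CBE mouse 1, which ended the call.

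Rtp4, a chaperone of membrane receptors, measured 5.36, 5.67 and 5.42 in PBS mice 1, 2 and 3 and 7.43, 6.43 and 6.39 in CBE mice 1, 2 and 3 (probe set 17324446). The groups did not overlap. Its change of 1.27 ± 0.22 (limma adjusted p 0.0286) became 0.93 ± 0.19 without CBE mouse 1, and the adjusted p of 0.131 was then over the threshold.

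Cd68 passed when CBE mouse 1 was left out. Its signal (probe set 17264835) was 6.24, 6.11 and 6.11 in PBS mice 1, 2 and 3 and 8.85, 6.82 and 6.89 in CBE mice 1, 2 and 3. CBE mice 2 and 3 lay close together above the PBS mice, and CBE mouse 1 lay 4-fold above their mean. With all arrays the change was 1.36 ± 0.31 (limma adjusted p 0.189). Leaving that mouse out gave a smaller change, 0.70 ± 0.11, that passed (adjusted p 0.0195).

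The calls rested on the spread shared by the 24 arrays and on single mice. Fitted on the C3H arrays alone, limma called 0 genes at the adjusted threshold and 994 at an unadjusted p under 0.05, and 3 genes without CBE mouse 1. Leaving out 1 mouse from the fit with all arrays gave 4 calls without PBS mouse 1, 3 without PBS mouse 2, 7 without PBS mouse 3, 7 without CBE mouse 1, 21 without CBE mouse 2 and 52 without CBE mouse 3. From the fit without CBE mouse 1, leaving out a further mouse gave 2, 3 and 3 calls for PBS mice 1, 2 and 3, and 1 and 9 for CBE mice 2 and 3. Lgals3bp lost its call without PBS mouse 1 or 2 (limma adjusted p 0.0707 and 0.109), as did Rnf213 (0.0515 and 0.0553), and Ifi27 without PBS mouse 2 or 3 (0.0553 and 0.0603). Isg15 lost it without PBS mouse 1 or 2 (adjusted p 0.214 and 0.236) as well as without CBE mouse 1. Rtp4 lost it without any one PBS mouse (0.218, 0.0752 and 0.144) or without CBE mouse 1. Cd68, not called with all arrays, passed on leaving out any one CBE mouse (limma adjusted p 0.0195, 0.0261 and 0.0231 for mice 1, 2 and 3). Its call in the fit without CBE mouse 1 was lost on leaving out any further C3H mouse (adjusted p 0.0537, 0.126 and 0.0905 for PBS mice 1, 2 and 3, and 0.212 and 0.138 for CBE mice 2 and 3). Over the 14 alternatives to that fit, the call was lost in 8 for Lgals3bp, Ifi27 and Cd68, in 7 for Rnf213, in 5 for Oasl2, in 2 for Ifit1 and in 0 for Usp18. Among the further mice left out, CBE mouse 2 ended the calls of Ifit1, Oasl2, Lgals3bp and Ifi27 (adjusted p 0.124, 0.501, 0.907 and 1), and PBS mice 1 and 3 that of Oasl2 (0.0906 and 0.0905). Lgals3bp and Ifi27 also lost it without PBS mouse 1, 2 or 3 (adjusted p from 0.0905 to 0.247), and Rnf213 without any further C3H mouse (0.0905 to 0.248).

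**Figure D1:**
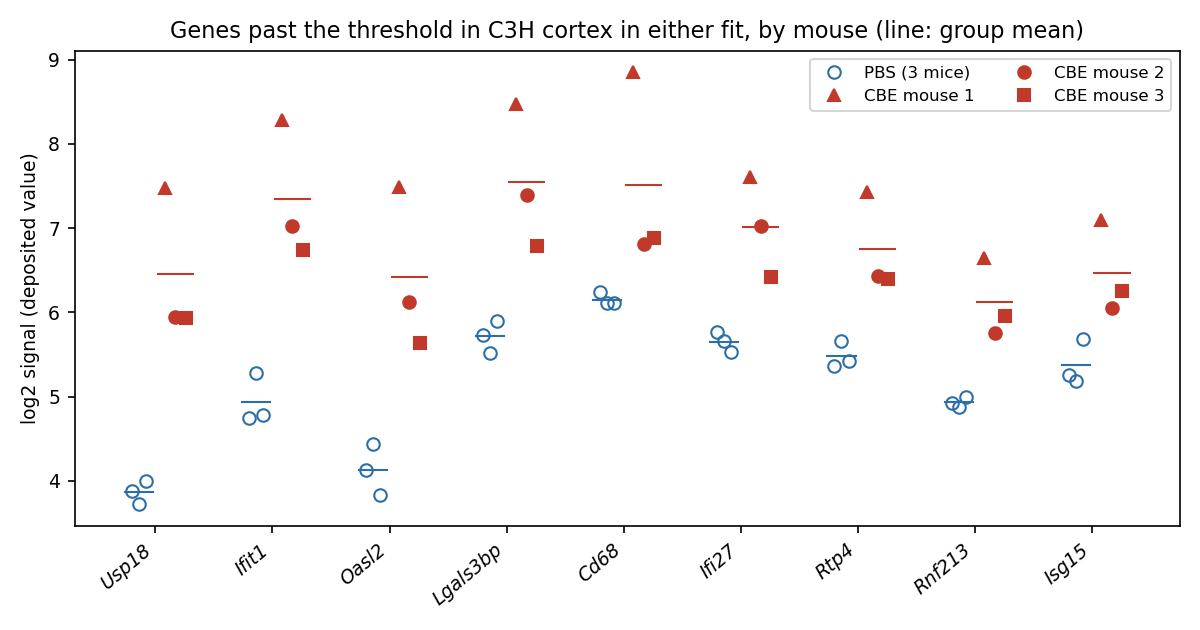
Log2 signal of the 9 genes past the threshold with or without CBE mouse 1, for each of the 6 C3H mice; open circles are PBS mice, filled symbols CBE mice, lines group means. CBE mouse 1 (triangles) is the highest for every gene, and CBE mice 2 and 3 lie above all PBS mice.

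Most of the measured interferon-stimulated genes were higher in CBE mice, many by small amounts. The counts, medians and means of this list include its members already called above, so they do not describe the uncalled members alone. Of 33 measured members, 6 rose past the threshold with all arrays and 4 without CBE mouse 1, and 0 fell. The median change of the list was 0.41 log2 units, and 0.32 without CBE mouse 1, against −0.006 and −0.004 over all genes. In 21 of the 33 genes all CBE mice lay above all PBS mice, an order seen in 4.5% of all genes; CBE mice 2 and 3 alone did so for 21 members, against 8.88% of all genes. The list mean was 4.52, 4.54 and 4.57 in the PBS mice and 5.67, 5.04 and 5.01 in CBE mice 1, 2 and 3. CBE mouse 1 was also the highest in the microglial lists, whose part in this result was not tested.

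Irf7, a factor that amplifies the interferon response, lay between 4.07 and 4.23 in the PBS mice and at 6.57, 5.11 and 4.91 in CBE mice 1, 2 and 3. Its change was 1.39 ± 0.28 (limma adjusted p 0.0902) and 0.87 without CBE mouse 1. Ifitm3, a membrane protein that blocks viral entry, lay between 5.51 and 5.80 in the PBS mice and at 8.12, 6.45 and 6.55 in CBE mice 1, 2 and 3. Its change was 1.43 ± 0.30 (limma adjusted p 0.123) and 0.89 without CBE mouse 1. Neither passed the threshold, and both were picked for the text after their values were seen. Rsad2, the antiviral enzyme viperin, differed by 0.41 ± 0.10 with nearly equal signal in the 3 CBE mice, between 4.41 and 4.54 in the PBS mice and at 4.92, 4.83 and 4.96 in CBE mice 1, 2 and 3 (limma adjusted p 0.319), and by 0.40 without CBE mouse 1.

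Among 16 measured receptors, Stats and Irfs of interferon signalling, 0 passed in either fit and the median change was 0.03, or −0.004 without CBE mouse 1. The members above 0 were 10 with all arrays and 7 without it. Irf9, the DNA-binding member of the complex that interferon activates, lay between 4.32 and 4.81 in the PBS mice and at 6.16, 5.46 and 5.14 in CBE mice 1, 2 and 3, and its change of 1.09 ± 0.20 had a limma adjusted p of 0.0505, just over the threshold. The change was 0.80 (adjusted p 0.295) without CBE mouse 1. Stat3, which carries signals of cytokines such as Il6, differed by 0.35 ± 0.08 and by 0.25 without CBE mouse 1.

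The 10 measured interferon-induced GTPases, which attack the membranes around intracellular microbes, had a median change of 0.61, and 0.29 without CBE mouse 1; 0 passed the threshold. Igtp lay between 3.79 and 4.30 in the PBS mice and at 5.50, 4.88 and 4.66 in CBE mice 1, 2 and 3, and Gbp3 lay between 4.86 and 5.04 in the PBS mice and at 6.65, 5.54 and 5.52 in CBE mice 1, 2 and 3. CBE mouse 1 lay above the mean of the other CBE mice for all 10 genes. Of 20 measured sensors of RNA, DNA and microbial molecules, 0 passed; the median change was 0.19, and 0.08 without CBE mouse 1. Ifih1, which senses long double-stranded RNA, lay between 5.73 and 5.90 in the PBS mice and at 7.56, 6.59 and 6.38 in CBE mice 1, 2 and 3 and differed by 1.06 ± 0.21 (limma adjusted p 0.0902), or 0.70 without CBE mouse 1.

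Of 18 measured chemokines 0 passed; the median change was 0.42 with all arrays and 0.25 without CBE mouse 1. In 10 of them all CBE mice lay above all PBS mice, against 4.5% of all genes. Ccl5, which attracts T cells and monocytes, was 4.27, 4.33 and 4.28 in PBS mice 1, 2 and 3 and 6.02, 5.49 and 5.15 in CBE mice 1, 2 and 3. Its change was 1.26 ± 0.29 (limma adjusted p 0.212), and 1.02 ± 0.31 without CBE mouse 1. Cxcl11, a ligand of Cxcr3, was 4.06, 3.94 and 4.02 in PBS mice 1, 2 and 3 and 5.73, 4.71 and 4.33 in CBE mice 1, 2 and 3, a change of 0.92 ± 0.20, or 0.51 without CBE mouse 1. Ccl3, made by activated microglia, was 3.81, 3.88 and 3.94 in PBS mice 1, 2 and 3 and 7.60, 4.67 and 4.69 in CBE mice 1, 2 and 3. CBE mouse 1 lay 7.56-fold above the mean of the other CBE mice for Ccl3, whose change was 1.77 with it and 0.80 without it.

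Genes of disease-associated microglia were higher mostly in CBE mouse 1. Of the 25 measured members, 0 passed with all arrays and 1, Cd68, passed without CBE mouse 1. The median change was 0.59, and 0.21 without that mouse. CBE mice 2 and 3 nevertheless lay above all PBS mice for 13 of the 25 members, against 8.88% of all genes. Lilrb4a, an inhibitory receptor of myeloid cells with close relatives in its family, was 4.19, 4.31 and 4.02 in PBS mice 1, 2 and 3 and 9.43, 5.90 and 5.55 in CBE mice 1, 2 and 3 (probe set 17233226). Its change was 2.79 ± 0.60 (limma adjusted p 0.143), and 1.55 ± 0.29 without CBE mouse 1 (adjusted p 0.0874). CBE mice 2 and 3 were more than 1 log2 unit above every PBS mouse for this gene, and CBE mouse 1 was 13-fold above them.

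Gpnmb, a glycoprotein raised in Gaucher disease tissue, was 3.83, 3.59 and 3.80 in PBS mice 1, 2 and 3 and 7.67, 4.31 and 4.13 in CBE mice 1, 2 and 3, a change of 1.63 ± 0.52 that became 0.48 ± 0.16 without CBE mouse 1. Trem2 and Tyrobp, the receptor and adaptor needed for the disease-associated state, differed by 0.79 and 0.88 with all arrays and by 0.19 and 0.32 without CBE mouse 1; they were picked after their values were seen. Itgax differed by 0.64 and 0.25 in the same order. Lpl, a lipase of lipid-laden microglia, differed by 0.27 and 0.26, with CBE mouse 1 only 0.02 above the mean of the others. None of these 5 genes passed in either fit.

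Receptors and effectors of myeloid cells were also highest in CBE mouse 1 for the genes named here. Of 23 measured Fc and inhibitory myeloid receptors 0 passed, with a median change of 0.35, and 0.12 without CBE mouse 1. Cd84, a receptor of the Slam family, lay between 3.83 and 3.89 in the PBS mice and at 5.54, 4.30 and 4.23 in CBE mice 1, 2 and 3. Of 5 measured phagocyte oxidase subunits 0 passed. Their median change was 0.39, or 0.12, and Cybb, the catalytic subunit, lay between 3.58 and 3.84 in the PBS mice and at 6.66, 4.61 and 4.33 in CBE mice 1, 2 and 3.

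Of 13 measured complement genes 0 passed, with medians of 0.33 and 0.10. Members above 0 were 8 with all arrays and 7 without CBE mouse 1, so the list did not rise as a whole. CBE mice 2 and 3 lay above all PBS mice for 6 members and below them for 3, against 1969 and 2133 of all 22180 genes. The members named here are among those that were higher. C1qb, a chain of the recognition protein C1q, was 7.74, 7.70 and 7.69 in PBS mice 1, 2 and 3 and 9.43, 8.53 and 8.09 in CBE mice 1, 2 and 3; its change was 0.98 ± 0.22 (limma adjusted p 0.183) and 0.60 without CBE mouse 1. C3ar1, the C3a receptor, differed by 1.06, and by 0.46 without it. C4b, which has a close copy, C4a, differed by 1.32 and 0.70 and was picked after its values were seen.

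Of 17 measured genes of MHC class I and peptide loading 0 passed, with medians of 0.23 and 0.11. B2m, the light chain of class I molecules, was 9.48, 9.26 and 9.46 in PBS mice 1, 2 and 3 and 11.40, 10.09 and 9.93 in CBE mice 1, 2 and 3. Its change was 1.07 ± 0.24 (limma adjusted p 0.189), and 0.61 ± 0.15 without CBE mouse 1. Tapbp, which loads peptides, differed by 0.60 ± 0.12 (limma adjusted p 0.0898), and by 0.46 without CBE mouse 1. The 11 genes of the MHC class II pathway had medians of 0.08 and 0.10, and 0 passed.

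Among lysosomal genes, cathepsins had a larger median change than the hydrolases and membrane proteins, a difference that was not tested. Of 11 measured cathepsins 0 passed, with medians of 0.28 and 0.10 without CBE mouse 1. Ctsz lay between 7.53 and 7.89 in the PBS mice and at 10.05, 8.38 and 7.98 in CBE mice 1, 2 and 3. Ctsc lay between 5.23 and 5.67 in the PBS mice and at 7.48, 6.18 and 5.93 in CBE mice 1, 2 and 3. Ctss lay between 9.17 and 9.24 in the PBS mice and at 10.98, 9.74 and 9.46 in CBE mice 1, 2 and 3. All 3 were highest in CBE mouse 1, and their changes without CBE mouse 1 were 0.49, 0.55 and 0.39. Of 30 measured lysosomal hydrolases and membrane proteins, 0 passed with all arrays and 1, Cd68, passed without CBE mouse 1; the medians were 0.12 and 0.04.

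Hexa, a subunit of the enzyme that degrades GM2 ganglioside, was 8.23, 8.25 and 8.39 in PBS mice 1, 2 and 3 and 9.21, 8.42 and 8.25 in CBE mice 1, 2 and 3, so that its change of 0.34 became 0.05 without CBE mouse 1. The 21 measured genes of glucosylceramide and ganglioside metabolism had medians of −0.02 and 0.02, and 0 passed in either direction. Ugcg, which makes glucosylceramide, differed by −0.12 ± 0.10, and by −0.16 without CBE mouse 1. Gba2, a non-lysosomal glucosylceramidase, differed by −0.14 ± 0.07 and −0.11. B4galt6, which makes lactosylceramide, differed by −0.12 and −0.07.

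No marker of resting microglia passed the threshold. The 14 measured genes averaged 6.20, 6.20 and 6.32 in the PBS mice and 6.77, 6.33 and 6.39 in CBE mice 1, 2 and 3, with medians of 0.23 and 0.13 without CBE mouse 1; 0 passed. P2ry12, a purine receptor of resting microglia, was 8.71, 8.70 and 8.92 in PBS mice 1, 2 and 3 and 9.24, 8.93 and 8.88 in CBE mice 1, 2 and 3. Its change was 0.24 ± 0.12, or 0.13. Tmem119 differed by 0.10 and 0.04, with overlapping groups, and turned negative when further mice were left out. Csf1r, the receptor that microglia need to survive, differed by 0.33 and 0.16. P2ry6, a receptor that drives phagocytosis, differed by 0.79 ± 0.18 (limma adjusted p 0.226) and 0.48. In these bulk samples, more microglia and more RNA of these genes per microglial cell cannot be told apart.

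**Figure D2:**
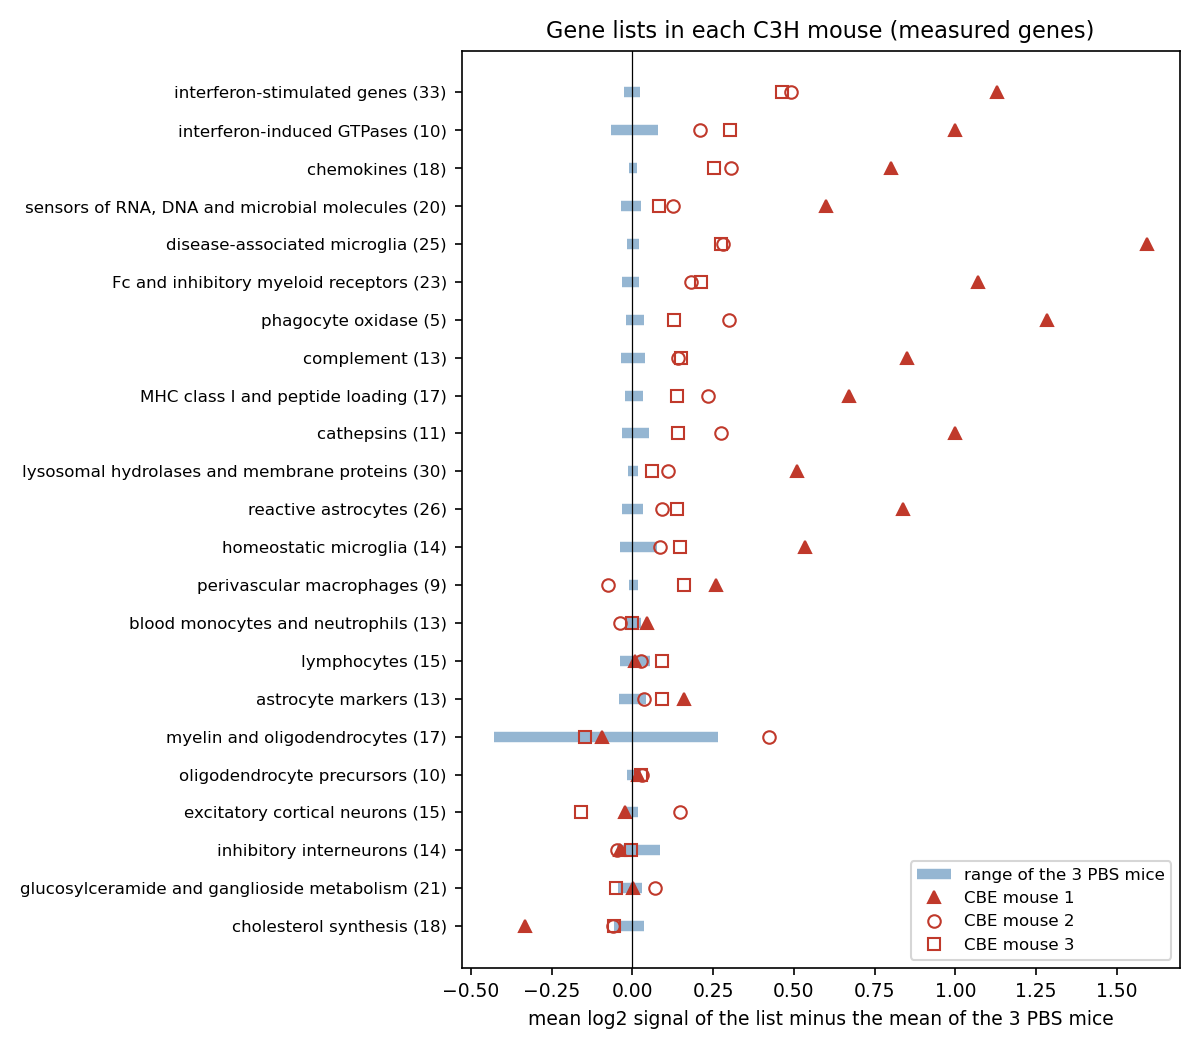
Mean log2 signal of each gene list in each CBE mouse, minus the mean of the 3 PBS mice; bars span the PBS mice and brackets give the number of measured genes. In the 13 lists from interferon-stimulated genes down to homeostatic microglia CBE mouse 1 lies furthest to the right, and CBE mice 2 and 3 lie nearer to the PBS mice. For lymphocytes CBE mouse 1 is the lowest of the 3 CBE mice.

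Markers of blood cells and of perivascular macrophages were compared between the mice. The 15 measured lymphocyte genes averaged 3.51 to 3.60 in the PBS mice and 3.55, 3.57 and 3.64 in CBE mice 1, 2 and 3. The 13 genes of blood monocytes and neutrophils averaged 3.70 to 3.74 and 3.76, 3.68 and 3.71. The 9 genes of perivascular macrophages averaged 4.12 to 4.15 and 4.39, 4.06 and 4.30, so CBE mice 1 and 3 were above the PBS mice and CBE mouse 2 below them. In each of these 3 lists 0 genes passed in either fit.

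Reactive astrocyte genes were high mostly in CBE mouse 1. Of 26 measured reactive astrocyte genes 0 passed, with medians of 0.09 and 0.04 without CBE mouse 1, and CBE mouse 1 lay above the mean of the others for 23. Gfap, the intermediate filament of reactive astrocytes, was 6.15, 6.25 and 6.49 in PBS mice 1, 2 and 3 and 8.05, 7.32 and 7.05 in CBE mice 1, 2 and 3. All CBE mice lay above all PBS mice. Its change was 1.18 ± 0.27 (limma adjusted p 0.212), and 0.89 ± 0.27 without CBE mouse 1.

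Serpina3n, a secreted protease inhibitor with near-identical relatives, was 6.34, 6.31 and 5.80 in PBS mice 1, 2 and 3 and 10.32, 7.07 and 7.14 in CBE mice 1, 2 and 3. Its change was 2.03 ± 0.49, and 0.95 ± 0.19 without CBE mouse 1 (limma adjusted p 0.319 and 0.0994). Lcn2, an iron-carrier protein of reactive astrocytes, was 3.39, 3.57 and 3.41 in PBS mice 1, 2 and 3 and 7.54, 3.72 and 3.49 in CBE mice 1, 2 and 3. Only CBE mouse 1 was high for Lcn2, and the change went from 1.46 to 0.14 without it. The 13 general astrocyte markers had medians of 0.06 and 0.05; Aqp4 differed by 0.35 and 0.13, and Sox9 by 0.29 and 0.24.

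None of the measured neuronal, myelin and regional genes passed in either fit. The excitatory cortical neuron list averaged 8.57 to 8.88 over the 6 arrays, which describes the labelled tissue but is no test of it, since levels of different probe sets cannot be compared. Excitatory cortical neuron genes (15 measured) had a median change of −0.05, or −0.005 without CBE mouse 1, and inhibitory interneuron genes (14) of −0.04, or −0.06. The 13 genes of the list for the thalamus, a region beneath the cortex, had a median of 0.05 in both fits. Calb2 is also on the interneuron list, so this list does not mark the thalamus alone. The groups separated in 0 of the 13 members. Of all 22180 genes, the CBE mice lay above all PBS mice in 998 and below them in 1147. At those rates, 0 among 13 genes does not set the list apart. The 17 myelin genes averaged 7.67, 7.78 and 7.08 in the PBS mice and 7.42, 7.93 and 7.36 in the CBE mice, with wide overlap. Cholesterol synthesis genes were lower in CBE mouse 1: the 18 measured genes averaged 8.06 to 8.16 in the PBS mice and 7.79, 8.06 and 8.07 in CBE mice 1, 2 and 3. Their median change was −0.17, and −0.10 without that mouse, and 0 passed. Stard4, a sterol carrier, differed by −0.29 ± 0.11, or −0.21, and Msmo1, a sterol oxidase, by −0.23 ± 0.09, or −0.11.

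The array of CBE mouse 1 was compared gene by gene with the mean of CBE mice 2 and 3, as a description with no test. The 10 genes furthest above were Lcn2 (3.94 log2 units), Lilrb4a (3.70), Gpnmb (3.45), Serpina3n (3.22), Scgb3a1 (3.13), Ccl3 (2.92), Ch25h (2.71), Clec7a (2.69), Lyz2 (2.51) and Igsf6 (2.48). Ch25h, which makes an oxysterol, was 4.49, 4.83 and 4.41 in PBS mice 1, 2 and 3 and 7.13, 4.17 and 4.66 in CBE mice 1, 2 and 3, so that without CBE mouse 1 its difference was −0.16. Lyz2, the lysozyme of macrophages, was 4.07, 4.27 and 3.93 in PBS mice 1, 2 and 3 and 7.03, 4.38 and 4.65 in CBE mice 1, 2 and 3. Scgb3a1, a secretoglobin outside the lists, was 4.11, 4.16 and 4.16 in PBS mice 1, 2 and 3 and 7.41, 4.40 and 4.16 in CBE mice 1, 2 and 3. CBE mouse 1 alone was high for Scgb3a1 and Ch25h, while CBE mice 2 and 3 lay above the PBS mice for Lyz2.

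Of the 7 genes at least 1 log2 unit below, 1 was a predicted gene model, which the naming rule leaves out. The 10 other genes furthest below were Slc25a18 (−1.19), Myl6 (−1.16), Rdh13 (−1.15), Gnpda1 (−1.15), Scd1 (−1.10), Scn4b (−1.07), Tmem200b (−0.99), Cox6a2 (−0.95), Ccl17 (−0.95) and Camk2n2 (−0.94). Scd1, a fatty acid desaturase, was 9.30, 9.43 and 9.28 in PBS mice 1, 2 and 3 and 8.32, 9.48 and 9.38 in CBE mice 1, 2 and 3. By list, the median gap was 1.15 for disease-associated microglia, where 24 of 25 members were above, 0.81 for interferon-induced GTPases and 0.43 for interferon-stimulated genes, where 30 of 33 were above. It was 0.41 for resting microglia, −0.21 for myelin and −0.28 for cholesterol synthesis, where 1 of 18 was above. Over all genes CBE mouse 1 was above in 48.3%. What sets this mouse apart was not tested.

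**Figure D3:**
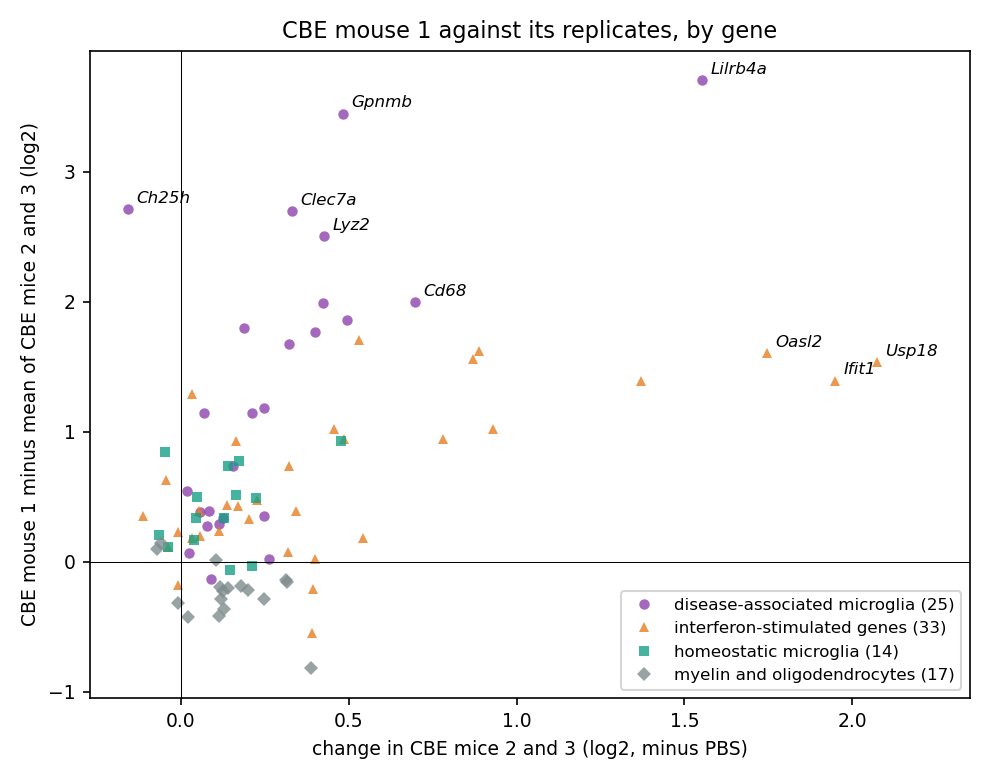
Each point is a gene of 4 lists, placed by its change in CBE mice 2 and 3 against the PBS mice (horizontal, log2) and by the gap of CBE mouse 1 above the mean of CBE mice 2 and 3 (vertical, log2); the mean of CBE mice 2 and 3 enters both axes. Lilrb4a has a gap of 3.70 at a change of 1.55 and Gpnmb a gap of 3.45 at 0.48, while Usp18 has a gap of 1.54 at a change of 2.07.

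The change in C3H was then set against the mean change in SV129, FVB and C57, as a test of the difference itself. With limma 0 genes passed in either direction, with all arrays (910 at an unadjusted p under 0.05, 4.1%) or without CBE mouse 1 (866, 3.9%). For the 9 genes called in C3H the difference ran from −0.33 ± 0.22 for Isg15 to 0.81 ± 0.35 for Cd68 (SE). Without CBE mouse 1 it ran from −0.68 for Ifit1 to 0.20 for Ifi27. None of these passed after adjustment, which does not show that the strains responded alike.

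Each strain's own difference between CBE and PBS mice is given for 5 of the called genes. Usp18 differed by 2.59 in C3H (2.07 without CBE mouse 1), 1.32 in SV129, 1.77 in FVB and 2.68 in C57. Ifit1 differed by 2.41 (1.95), 2.02, 2.75 and 3.12 in the same order, and Isg15 by 1.09 (0.78), 0.97, 1.47 and 1.83. Ifi27 differed by 1.36 (1.07), 0.30, 1.35 and 0.95, and Cd68 by 1.36 (0.70), 0.11, 0.76 and 0.79. The order of the strains was not tested beyond the pairwise differences. Of the 8 genes called in C3H with all arrays, 8 were among the 30 called in FVB (100.0% of the C3H genes, 26.7% of the FVB genes). C57 shared 7 (87.5% and 9.72% of its 72), and SV129 shared 2 (25.0% and 8.0% of its 25). The calls in FVB, C57 and SV129, in either direction, were 0.135%, 0.325% and 0.113% of the genes tested. Leaving out C3H CBE mouse 1, all 7 C3H genes were among the 85 called in FVB (0.383% of genes) and the 136 called in C57 (0.613%), and 2 were among the 32 called in SV129 (0.144%). The arrays of the other strains were the same in both fits, and their counts moved because all groups share 1 estimate of the spread. For the same reason the calls of the strains are not independent, and their overlap was not tested.

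Against single strains, few genes passed. The change of Cxcl13, which attracts B cells, was 0.65 ± 0.36 in C3H and 4.37 ± 0.36 in FVB, a difference of −3.72 ± 0.51 (limma adjusted p 0.00666) and −3.98 ± 0.52 without CBE mouse 1 (adjusted p 0.00225). It was the only gene called against FVB with all arrays (0.00451% of genes). Rsad2 was the only one against C57 (0.00451%): 0.41 ± 0.10 in C3H and 1.36 ± 0.10 in C57, a difference of −0.96 ± 0.14 (limma adjusted p 0.0178), and −0.96 ± 0.15 without CBE mouse 1. In C3H Cxcl13 lay between 4.81 and 4.93 in the PBS mice and at 6.03, 5.37 and 5.14 in CBE mice 1, 2 and 3. Leaving out CBE mouse 1, 2 genes passed against FVB (0.00902%) and 6 against C57 (0.0271%), all with the smaller change in C3H. That mouse was left out because it was seen to be high, so calls found only without it rest partly on that choice. At an unadjusted p under 0.05 there were 906 (4.08%) and 831 (3.75%) with all arrays, and 913 (4.12%) and 970 (4.37%) without that mouse. Against SV129, limma called 0 genes with all arrays (1705 unadjusted, 7.69%) and 0 without CBE mouse 1 (1361 unadjusted, 6.14%).

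**Figure D4:**
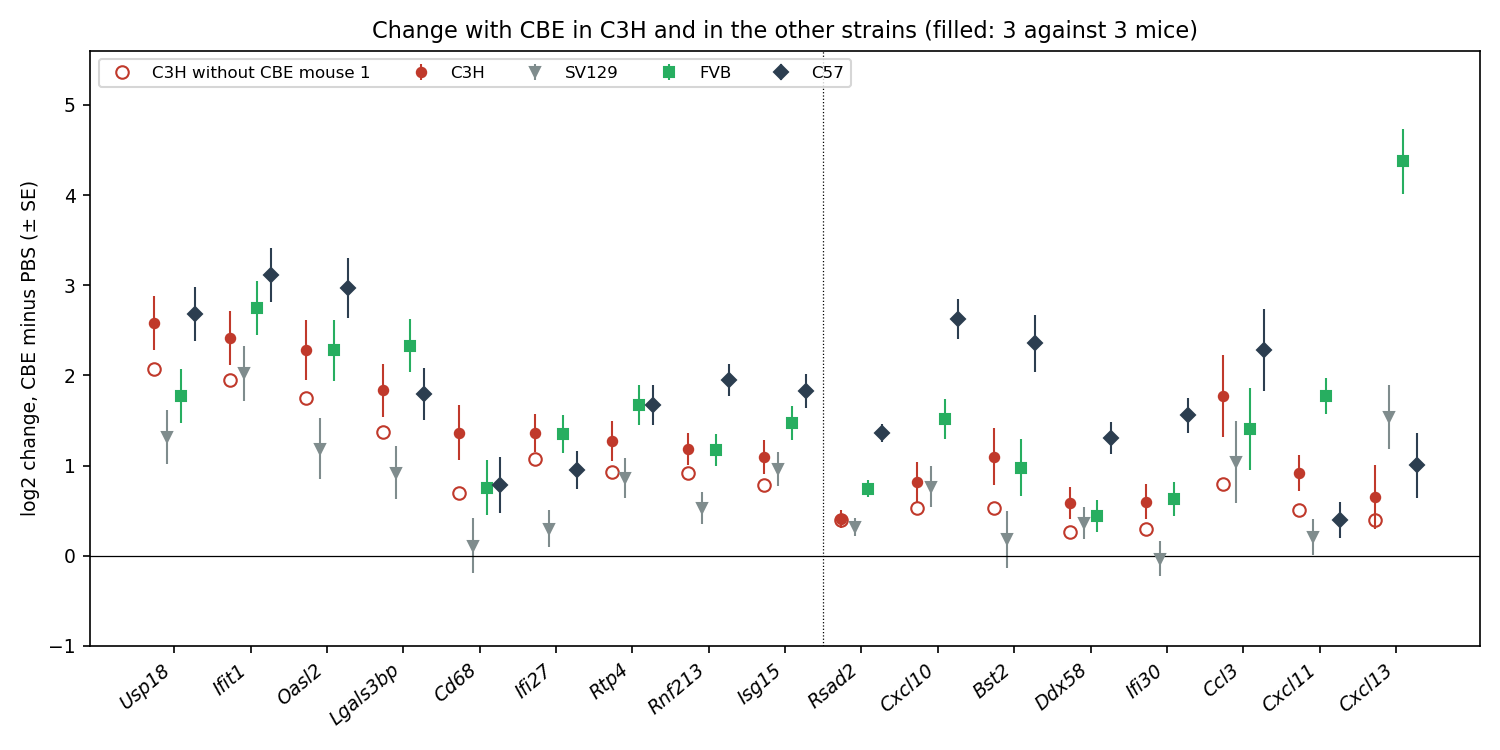
Log2 change (CBE minus PBS) in each strain, 3 against 3 mice, with bars of 1 SE of the limma fit. The bars come from the spread shared by all groups and do not show the spread of each strain's own mice. Open circles are C3H without CBE mouse 1, drawn without a bar. The dotted line parts the 9 genes called in C3H from 8 genes whose change differed between C3H and FVB or C57 in a pairwise test. Of these 8, Cxcl13 and Rsad2 passed with all arrays, and the others passed only without CBE mouse 1. Cxcl13 reaches 4.37 in FVB and 0.65 in C3H.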

How the data were processed

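RNA of 24 cortices was hybridised to Affymetrix arrays from 100 ng each, 1 array per mouse, 3 mice in each of 8 groups. The authors deposited 1 log2 value per probe set and array, made with Partek and RMA per the submitters' processing notes; no version, scan batch or genome build was named there or in the labels. The log base was inferred from the highest value, 14.09. Gene symbols came from the platform annotation: 23521 probe sets had 1, 1814 several and 15699 none. For 1082 symbols with several probe sets the one of highest mean was kept, leaving 22180 genes. No dim probe set was removed, and the number of arrays limits the precision: the median SE of a C3H change was 0.0989, and 0.11 without CBE mouse 1.

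Changes were fitted with limma 3.58.1 in R 4.3.3, with 1 mean per group over 24 arrays (16 residual and 5.1 prior degrees of freedom) or 23, moderated and two-sided, with Benjamini-Hochberg adjustment over all genes and a threshold of 0.05. A permutation test cannot go below 0.1 with 3 against 3 mice, or 0.2 with 2 against 3. Nothing in the labels says more of the mice than that they are separate samples, so p-values measure the spread between those. The code was tested on simulated data. Alternatives were each C3H mouse left out (for differences between strains each mouse of the 4 strains, an alternative chosen after seeing the data), C3H arrays alone, an ordinary model, robust moderation, array weights, quantile normalization, median centring, a filter on dim probe sets, all probe sets and a replicate block.

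Genes were named if past the threshold with groups that did not overlap (up to 12 rises and 12 falls per fit), as list members (up to 4 called, otherwise the 2 of smallest p), for the 10 largest gaps of CBE mouse 1 each way, or as disease and microglial genes chosen by name. The 46 lists held 758 entries, of which 683 were measured (654 genes, 2 through a newer symbol); erythroid cells had 1 measured member. The comparison, the lists and the choice to leave out CBE mouse 1 were made with earlier results of these data known, so lists are described by counts and medians without a test.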

Additional observations from a re-analysis of the deposited data

Results flagged for a closer look

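For 8 genes the change in C3H differed from that in 1 other strain, in a limma test of the difference itself adjusted over all genes. These genes were picked after their values were seen, and 6 of them passed only without CBE mouse 1. That mouse was left out because it was seen to be high. Leaving it out lowered the C3H change of these 6 genes, so their calls rest partly on that choice. With all arrays, the change in C3H minus that in FVB was −3.72 for Cxcl13, and the change in C3H minus that in C57 was −0.96 for Rsad2. Without CBE mouse 1, 2 genes passed against FVB (0.00902%): Cxcl13 at −3.98 (adjusted p 0.00225) and Cxcl11 at −1.26 (adjusted p 0.000535). Against C57, 6 passed without CBE mouse 1 (0.0271%). The differences were −2.09 for the Cxcr3 ligand Cxcl10 (adjusted p 0.00849), −1.83 for the restriction factor Bst2 (0.0284) and −1.48 for Ccl3 (0.0284). They were −1.26 for the lysosomal thiol reductase Ifi30 (0.0325), −1.04 for the RNA sensor Ddx58 (0.0284) and −0.96 for Rsad2 (0.0284).

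Cxcl11 differed between CBE and PBS mice by 0.92 in C3H with all arrays and by 0.51 without CBE mouse 1, beside 0.21 in SV129, 1.78 in FVB and 0.39 in C57. Cxcl10 differed by 0.82 and 0.53 in C3H, beside 0.77, 1.52 and 2.62. Bst2 differed by 1.10 and 0.53, beside 0.18, 0.98 and 2.36. For 6 of the 8 genes the call itself came from leaving out CBE mouse 1, which lowered the C3H change of each.

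The alternatives here include each mouse of the 4 strains left out in turn, chosen after seeing the data. Cxcl11 against FVB was not called with all arrays, but kept its call in all 31 alternatives to the fit without CBE mouse 1. Cxcl13 lost its call in 1 of these, the ordinary linear model. Cxcl10 lost it in 3 of 30, without C3H CBE mouse 2, without C3H CBE mouse 3 and in the ordinary linear model. Bst2 lost it in 12 of 30, Ccl3 in 12 of 31, Ddx58 and Rsad2 in 11 of 31 and Ifi30 in 17 of 31, each also without C57 PBS mouse 1 or 2 or C57 CBE mouse 2 or 3. Their highest adjusted p were 0.258, 0.258, 0.189, 0.176 and 0.258. With all arrays Rsad2 lost the call in 9 of 32, up to an adjusted p of 0.111, and Cxcl13 in 1, the ordinary linear model.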

How the results depend on the processing

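With all arrays, 8 genes were called. Leaving out 1 C3H mouse gave 3 to 52: 4 without PBS mouse 1, 3 without PBS mouse 2, 21 (20 higher, 1 lower) without CBE mouse 2 and 52 (49 higher, 3 lower) without CBE mouse 3. C3H arrays alone gave 0, the ordinary linear model 2 and quantile normalization 13; the cause was not tested. Without CBE mouse 1, 7 genes were called. Leaving out a further mouse gave 1 to 9, C3H arrays alone 3 and the ordinary linear model 1. With the replicate number as a block, the counts were 8 with all arrays and 4 without CBE mouse 1. Same-numbered C3H samples deviated together at correlations of −0.008, 0.101 and −0.027, so the numbers were not taken as pairs. The difference from the other 3 strains kept 0 calls in every alternative run, each mouse of the 4 strains left out included (limma; 910 genes at an unadjusted p under 0.05 with all arrays and 866 without CBE mouse 1).

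Of 9 genes called in C3H, Usp18 and Ifit1 with all arrays lost the call with C3H arrays alone, and Oasl2 also in the ordinary model. Isg15 and Rtp4 lost it in 6 of 15 alternatives. Without CBE mouse 1, adjusted p ran from 0.00023 to 0.0218 for Usp18 over 14 alternatives and from 0.0135 to 0.212 for Cd68, which lost its call in 8. Over the genes of the text, 1749 values in alternatives kept direction and side of the threshold, 66 no longer passed, 45 newly passed and 7 turned sign, all of small changes without CBE mouse 1. With a further mouse left out, Tmem119 ran from −0.065 (without CBE mouse 2) to 0.145, with −0.009 and −0.015 without PBS mice 1 and 2, and it was −0.009 with the replicate block. Aqp4 ran from −0.011 to 0.279 and Il1a from −0.04 to 0.215, both lowest without CBE mouse 3, and Hexa from −0.041, without CBE mouse 2, to 0.134. List medians moved by more than the spread between mice in 17 of 368 recomputed values.

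The deposited table holds no detection call, so a low signal that hides or shrinks a change could not be set apart. Lilrb4a, Serpina3n, C4b, H2-T24 and the Ifit and Oas families have relatives of near-identical sequence, and shared signal was not tested. Gene lists overlap and their members are not replicates.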

Other observations

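Several groups that the comparison did not turn on held no gene past the threshold in either fit. The 23 immediate-early genes, induced by neuronal activity, had a median change of 0.16, and 0.12 without CBE mouse 1. The 19 cell cycle genes had medians of 0.13 and 0.03, with CBE mouse 1 above the mean of the others for 16. The 13 glucocorticoid-responsive genes had 0.14 and 0.05, and the 11 genes of endothelial activation and leukocyte adhesion 0.13 and 0.04. The 16 inflammatory cytokine and inflammasome genes had 0.09 and 0.04; Il1a differed by 0.32 and 0.09, and Csf1, the growth factor of microglia, by 0.58 and 0.19. The 12 genes of necroptosis and death receptors had 0.04 and 0.02.

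Sterol efflux genes (11 measured) had medians of 0.05 and 0.02, and the efflux pump Abca1 differed by 0.37 and 0.20. The 11 heat shock genes had −0.08 and −0.02, and the 17 genes of the unfolded protein response −0.03 and −0.04. Hspa1b, an inducible chaperone with a near-identical copy, lay between 4.83 and 5.07 in the PBS mice and at 4.47, 4.49 and 4.53 in CBE mice 1, 2 and 3, below all PBS mice in every CBE mouse (change −0.46 ± 0.15, limma adjusted p 0.665, and −0.45 without CBE mouse 1). The meninges and fibroblast genes (12 measured) averaged 5.51 to 5.55 in the PBS mice and 5.56, 5.52 and 5.84 in CBE mice 1, 2 and 3, so that CBE mouse 3 was the high one.

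A few genes just outside the threshold were picked after their values were seen. Ecrg4, which encodes a secreted peptide, lay between 3.37 and 3.61 in the PBS mice and at 3.81, 3.91 and 3.89 in CBE mice 1, 2 and 3, with CBE mouse 1 within 0.1 of the others. Its change was 0.38 ± 0.07 (limma adjusted p 0.0505) and 0.40 without CBE mouse 1, beside −0.05, 0.01 and 0.05 in SV129, FVB and C57. H2-T24, a class I gene with close relatives, differed by 0.71 ± 0.13 (limma adjusted p 0.0505) and by 0.52 without CBE mouse 1 (adjusted p 0.295), beside 0.09, 0.06 and 0.25. Skint8 lay between 3.58 and 3.87 in the PBS mice and at 3.19, 3.23 and 3.41 in CBE mice 1, 2 and 3, a change of −0.47 ± 0.09 (limma adjusted p 0.079), or −0.43 without CBE mouse 1 (adjusted p 0.429). The limma test of the difference from the other 3 strains did not pass for Ecrg4 (adjusted p 0.70), Skint8 (0.528) or H2-T24, as 0 genes passed it. All signals given for Ecrg4 and Skint8 lay below the C3H array medians of 4.14 to 4.19, where a change is less certain.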
